A study of Mus musculus with 30 samples.

Results

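The 52 genes described here encode the machinery that docks, primes and fuses insulin granules at the plasma membrane: synaptotagmins and other calcium sensors, SNARE proteins and their regulators, priming and scaffold proteins, Rab3 and Rab27 GTPases with their effectors, and proteins of granule transport and vesicle membranes. They were chosen by symbol among the 39017 genes of the deposited count table. All 52 symbols were found, and 49 of them were among the 15627 genes that passed the filter on low counts. Rims1, Rab27b and Sytl2 did not pass it, with means of 0.0193, 0.041 and 0.0548 CPM (counts scaled to the size of the library with TMM) over the 30 libraries. They are given here by level only.

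Regulated exocytosis brings a granule to the membrane through Rab GTPases and their effectors, which link it to myosin motors on cortical actin and to docking sites. SNARE proteins of the granule (VAMPs) and of the plasma membrane (syntaxins and SNAP25 relatives) then zip into a complex, assisted by MUNC13, RIM and CAPS proteins and restrained or clamped by tomosyns and complexins. Calcium that enters through voltage-gated channels binds synaptotagmins and drives fusion. In beta cells this sequence releases insulin when glucose rises.

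Poly(A) RNA came from βTC3, a mouse insulinoma line that makes insulin, in 5 derived lines named by their plasmids. PB-33 cells served as the control. PB-33 ALK7 was made to express ALK7, a type I receptor that activin B can use and that Acvr1c encodes. PB-33 ALK7-DN cells expressed a construct called ALK7-DN, which the labels do not spell out. PB-31 ALK7-sh2 and PB-31 ALK7-sh1/2, here sh2 and sh1/2, were knock-down lines of ALK7. Every line, the control included, was kept for 24 hours in 1 µg/ml doxycycline (DOX), and the treated groups also received activin B (50 ng/ml, 24 hours). Each of the 10 groups had 3 libraries from wells plated in triplicate. The replicates were thus wells of a single line. A p-value sets a difference against the spread between such wells only, and this spread may be technical. No PB-31 line without a knock-down was analysed here, so knock-down and PB-31 plasmid cannot be told apart in comparisons of sh2 or sh1/2 with the control. ALK7-DN with activin B and sh2 under DOX alone made up batch 2 (6 libraries), and all other libraries were batch 1. In these lines the treatment coincided with the batch and the effects cannot be told apart.

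A RefSeq promoter each of 3 genes that were higher with activin B in all 5 lines (Mlph, Dnm3, Stx3) and 2 that were lower in all 5 (Rab27a, Sv2b) is given here because SMAD proteins, which carry activin signals to DNA, bind a short element, the SMAD box. It is spelled CAGAC and reads as GTCTG on the other strand. Each run is the 300 bases around a transcription start, mostly upstream, in the direction of transcription, in build GRCm38.p6. Capitals mark the SMAD box letters on either strand.
Mlph chr1:90914850-90915149 (plus strand): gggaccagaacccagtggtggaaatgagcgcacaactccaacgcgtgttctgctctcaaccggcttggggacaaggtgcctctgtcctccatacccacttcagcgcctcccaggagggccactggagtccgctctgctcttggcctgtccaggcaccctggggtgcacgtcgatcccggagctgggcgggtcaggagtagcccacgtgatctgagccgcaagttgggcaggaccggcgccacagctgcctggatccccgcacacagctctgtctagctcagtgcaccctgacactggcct
Dnm3 chr1:162477985-162478284 (minus strand): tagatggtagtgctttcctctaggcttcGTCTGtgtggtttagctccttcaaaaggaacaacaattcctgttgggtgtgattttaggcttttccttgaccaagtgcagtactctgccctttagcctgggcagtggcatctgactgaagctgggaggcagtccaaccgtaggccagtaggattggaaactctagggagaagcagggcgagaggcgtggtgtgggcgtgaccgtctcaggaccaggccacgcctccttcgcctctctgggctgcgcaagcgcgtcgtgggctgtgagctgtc
Stx3 chr19:11819354-11819653 (minus strand): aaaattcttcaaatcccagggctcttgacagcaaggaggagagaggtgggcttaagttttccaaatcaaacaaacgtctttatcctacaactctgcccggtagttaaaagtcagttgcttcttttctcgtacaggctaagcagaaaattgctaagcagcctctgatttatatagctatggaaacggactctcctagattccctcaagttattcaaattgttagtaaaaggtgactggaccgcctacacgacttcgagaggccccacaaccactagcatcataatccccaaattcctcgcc
Rab27a chr9:73044560-73044859 (plus strand): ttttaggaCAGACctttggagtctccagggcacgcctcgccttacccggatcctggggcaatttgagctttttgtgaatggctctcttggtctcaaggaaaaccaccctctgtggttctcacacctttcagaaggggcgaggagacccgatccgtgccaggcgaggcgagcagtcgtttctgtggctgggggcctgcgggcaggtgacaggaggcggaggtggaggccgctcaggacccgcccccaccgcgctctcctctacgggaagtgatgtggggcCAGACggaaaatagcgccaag
Sv2b chr7:75309213-75309512 (minus strand): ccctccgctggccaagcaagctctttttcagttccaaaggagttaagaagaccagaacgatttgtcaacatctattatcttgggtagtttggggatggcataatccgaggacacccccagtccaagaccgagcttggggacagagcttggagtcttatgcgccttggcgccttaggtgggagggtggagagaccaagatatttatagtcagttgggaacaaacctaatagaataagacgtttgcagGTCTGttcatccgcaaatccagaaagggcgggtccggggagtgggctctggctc

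The letters of the SMAD box stood in 0 places in the Mlph and Stx3 runs, in 1 place in those of Dnm3 and Sv2b and in 2 in that of Rab27a. RefSeq lists a second promoter of Rab27a, which held the letters in 3 places, and 3 further promoters of Sv2b, which held them in 0, 1 and 0. RefSeq promoters were matched for 40 of the 52 genes (46 promoters), and 19 of the 46 held the element, against 49.594% of all 32851 promoters of the same length. The palindrome GTCTAGAC, a stronger SMAD element, was in 0 of the 46 and in 0.213% of all promoters. A match of letters is a description and not a binding site.

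Library totals ran from 18904884 to 34740789 counts, and replicates differed by more than counting error (lowest chi-square per degree of freedom 7.63). Acvr1c was lower in the knock-down lines with activin B, all in batch 1 (42.7 CPM in sh2 and 26.7 in sh1/2, against 101 in the control). Under DOX alone it stood at 55.3 CPM in sh1/2 cells against 165 in the control. The sh2 value under DOX alone was 68.5 CPM, but those libraries were of another batch. The ALK7 and ALK7-DN constructs were not visible in its counts under DOX alone (154 and 161 CPM). Of 12 beta cell markers 11 were above 1 CPM, led by Ins2 at 5381 to 10569 CPM by group, whereas the maturity marker Ucn3 was near 0 and Slc2a2 was at 0.966 to 5.67 CPM. With activin B the summed beta cell markers went from 23757 to 18693 CPM in control and from 22622 to 19179 in ALK7 cells. They went from 24726 to 20075 in ALK7-DN and from 23608 to 18025 in sh2 cells, where these steps also hold the difference between batches. In sh1/2 cells they stood at 16218 CPM under DOX alone, below the control, and at 16814 with activin B. The 5 alpha cell markers summed to 529.6 CPM in sh1/2 cells under DOX alone against 222 in the control, with Irx1 near 0 and Ttr and Gcg making up most of the sum. In the same cells the 3 delta cell markers summed to 49.1 CPM against 13 in the control, and the 4 duct markers to 9.55 against 2.29. Rbp4 made up most of the delta sum and Cftr of the duct sum, with Hhex, Krt19 and Sox9 near 0. With activin B the alpha and delta sums were lower than under DOX alone in all 5 lines (in control cells 149 and 3.61 CPM). The part of these shifts in the results below was not tested. Acinar markers (7) summed to at most 0.793 CPM in any group and endothelial markers (4) to at most 0.405, and of the 6 neuronal markers Syp, which endocrine granules also carry, held most of the sum. Over the 30 libraries, GC-rich genes were counted least in control activin B replicate 2 and in replicates 1 and 3 of sh1/2 under DOX alone. The deviation of a gene from its mean over all libraries and its GC content had Spearman correlations of -0.634, -0.552 and -0.597 in these 3 libraries and of -0.353 to 0.476 in the others, over 15453 genes and as a description. Taken from the mean of the own group instead, the correlations were -0.747, -0.557 and -0.67, and replicate 3 of ALK7-DN with activin B (-0.601), of ALK7 with activin B (-0.563) and of sh2 under DOX alone (-0.514) were low as well. The libraries low on GC-rich genes named below are the 3 that were lowest over all libraries. In sh1/2 under DOX alone, replicates 1 and 3 differed least from each other (chi-square per degree of freedom 11.8). Replicate 2 differed more from replicates 1 and 3 (54.6 and 48), with a correlation of 0.755 when taken from the mean of its group. Leaving out the 3 libraries keeps only this replicate 2 of the group. Which of these replicates is the more typical was not tested.

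Levels were compared between genes as CPM per kilobase of exon, averaged over the 30 libraries. Among the calcium sensors Syt13, an atypical synaptotagmin without the residues that bind calcium, was the most abundant at 116, followed by Syt4 at 35.3, Syt11 at 29.9 and Syt7 at 29.4. Syt9 and Syt5, which bind calcium on dense-core granules, stood at 12.6 and 3.36, and the neuronal sensor Syt1 at 1.32. Syt16 and Syt17 were barely counted (means of 0.445 and 0.17 CPM). The SNARE group was led by the complexin Cplx2 at 87.1, far above its neuronal relative Cplx1 at 1.87, and by the vesicle SNARE Vamp3 at 86. Vamp2, the granule SNARE of insulin release, stood at 32.6, and its plasma membrane partners Snap25 and Stx1a at 12.1 and 10.9.

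Granuphilin (Sytl4), which holds granules at the membrane through Rab27a, and Noc2 (Rph3al), a Rab3 effector needed for endocrine secretion, led the Rab group at 88.9 and 70.3 CPM per kilobase. Rab3a stood at 31.8, Rab27a at 19, and the effectors Mlph and Exph5 at only 0.407 and 0.419. Of the MUNC13 genes Unc13a (14.8) exceeded Unc13b (2.4), and of the RIM genes Rims2 and Rims3 (6.59 and 6.96) were counted while Rims1 was not past the filter. A few of these genes share exon bases with a neighbour on the opposite strand, and the strand setting of the authors' counting is not given in the sources used here. The shared stretch was 495 bases for Unc13a (with Colgalt1, 144 CPM) and 29 for Rab3a (with Mpv17l2), and values of these genes are uncertain to that extent. A further row with the symbol Pclo, at a mean of 1.90 CPM, was not among the annotated genes used for position and length and was not counted as a member.

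**Figure D1:**
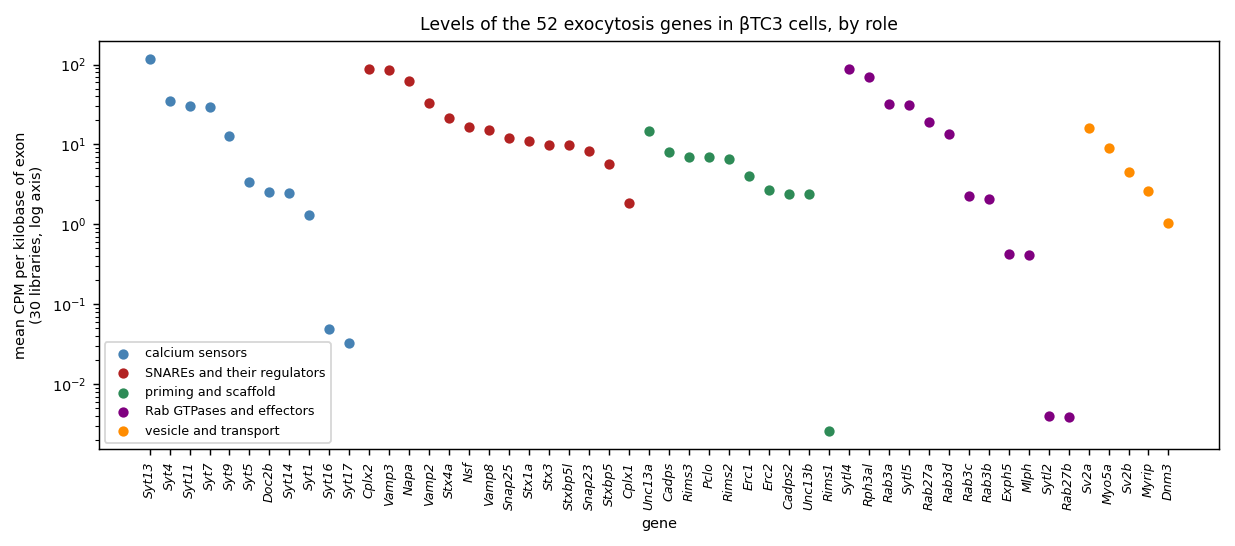
Mean level of each of the 52 genes over the 30 libraries, in CPM per kilobase of exon on a log axis, with 1 point per gene grouped and coloured by role. Levels run from Syt13 at 116 down to Rims1, Rab27b and Sytl2 below 0.004.

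The spread of the group means across the 10 groups differed between members. Mlph varied most, from 0.408 CPM in sh1/2 cells under DOX alone to 6.94 in ALK7 cells with activin B, a ratio of 17.0. Dnm3 varied by 6.21 times, Syt5 by 2.78 and Cplx2 by 2.61. At the other end were Vamp2 (1.14 times) and the tomosyn Stxbp5 (1.16), an inhibitor of SNARE assembly. The summed CPM of all members was highest in control cells with activin B (5111 ± 179 SD, n = 3) and lowest in sh1/2 cells under DOX alone (4476 ± 138). In all 5 lines the mean of this sum was higher with activin B than without. A large share of these steps lay in the single gene Cplx2, an abundant member whose mean went from 327 to 535 CPM in control cells, where the sum went from 4791 to 5111. In ALK7 cells Cplx2 went from 365 to 630 CPM and the sum from 4759.7 to 4975, a smaller step than that of Cplx2 alone. The median log2 fold change of the members was -0.03 in control cells.

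The first set of comparisons asked how the genes responded to activin B in each line. In control cells 10 of the 49 tested genes were higher with activin B and 7 lower. Over all 15627 genes 10.7% were higher and 9.66% lower. The increases included Mlph, Dnm3, Stx3 and Cplx2, and the decreases Sv2b, Snap25 and Rab27a. In ALK7 cells 13 were higher and 12 lower (13% and 12.3% of all genes). In ALK7-DN cells the counts were 10 and 4 (8.48% and 7.62%), in sh2 cells 11 and 6 (10.7% and 8.91%) and in sh1/2 cells 17 and 11 (17.5% and 19.1%). The threshold was a Benjamini-Hochberg adjusted p of 0.05 in edgeR's quasi-likelihood test over all genes. As a share of the 49 genes tested, the members called higher made up 20.4% in control, 26.5% in ALK7, 20.4% in ALK7-DN, 22.4% in sh2 and 34.7% in sh1/2 cells. The shares called lower were 14.3%, 24.5%, 8.16%, 12.2% and 22.4% in the same order. These shares are a description, since the members were chosen with earlier results of these data known. The median absolute log2 fold change of the members was 0.15 in control cells against 0.16 over all genes, and 0.27 against 0.18 in ALK7, 0.13 against 0.14 in ALK7-DN, 0.14 against 0.16 in sh2 and 0.23 against 0.24 in sh1/2 cells. The typical size of change was thus close to that of all genes in 4 of the lines and above it in ALK7 cells. In bulk RNA, fewer cells of a type and less RNA per cell cannot be told apart. The count in sh1/2 cells was 35 without sh1/2 DOX replicate 2 and 18 without sh1/2 DOX replicate 3. It was 18 with a GC correction, in which each library's trend of counts with GC content is removed. With the 6 sh1/2 libraries fitted alone it was 12.

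Of the 49 genes, 8 were called higher in all 5 lines (Syt7, Syt11, Stx3, Cplx2, Erc2, Mlph, Myrip and Dnm3) and 4 were called lower in all 5 (Syt4, Snap25, Rab27a and Sv2b), against 4.33% and 3.54% of all genes. Nsf was called higher in 4 lines. In each of these comparisons the 3 libraries with activin B lay apart from the 3 with DOX alone. Another 25 of the 49 genes were called in 1 to 3 of the lines, and 11 were called in none.

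**Figure D2:**
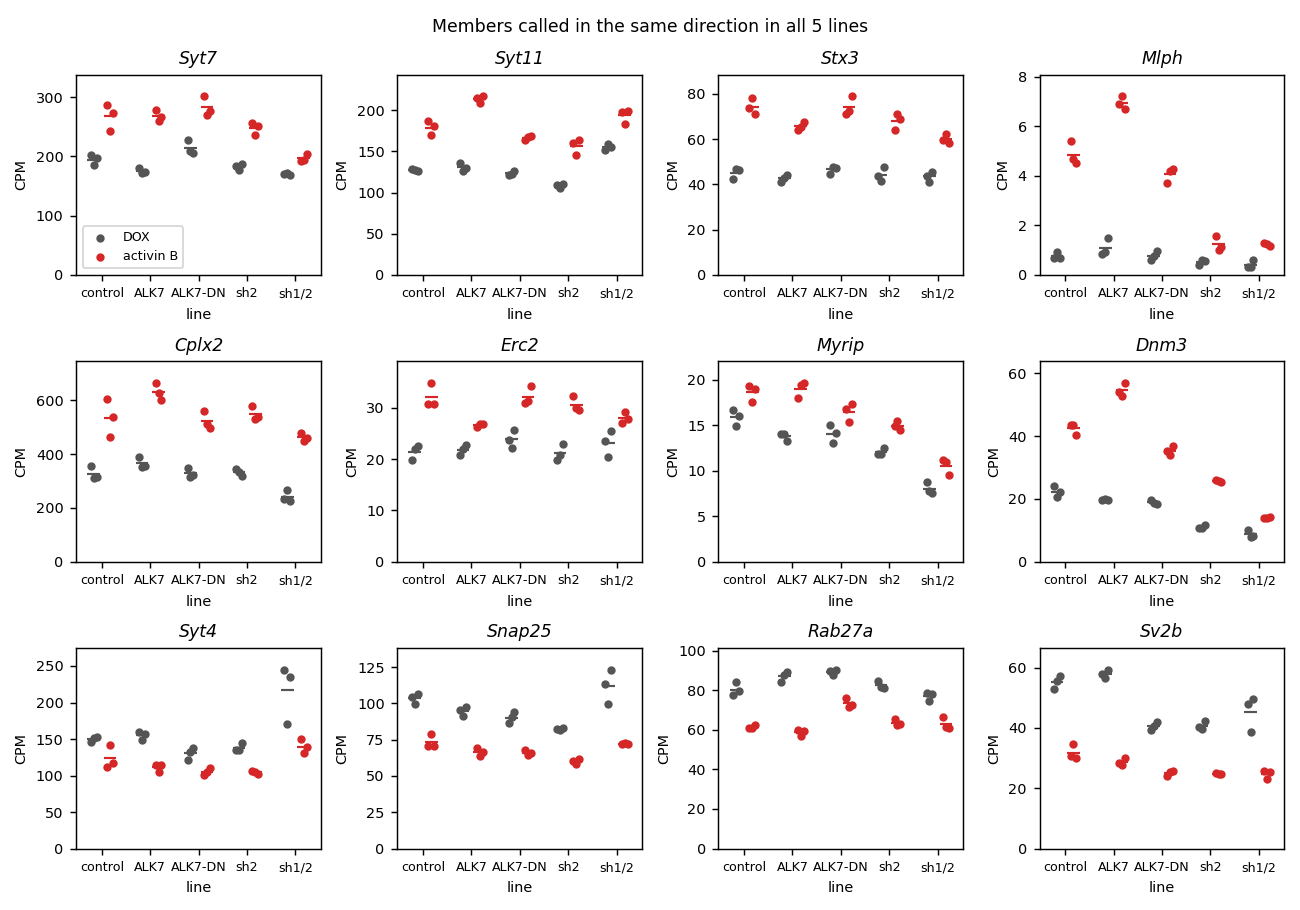
CPM in each library of the 12 genes called in the same direction in all 5 lines, DOX alone in grey and activin B in red, with a short line at each group mean of 3 libraries. The upper 8 panels show genes that were higher with activin B and the last 4 genes that were lower, and the DOX and activin B libraries do not overlap within any line.

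**Figure D3:**
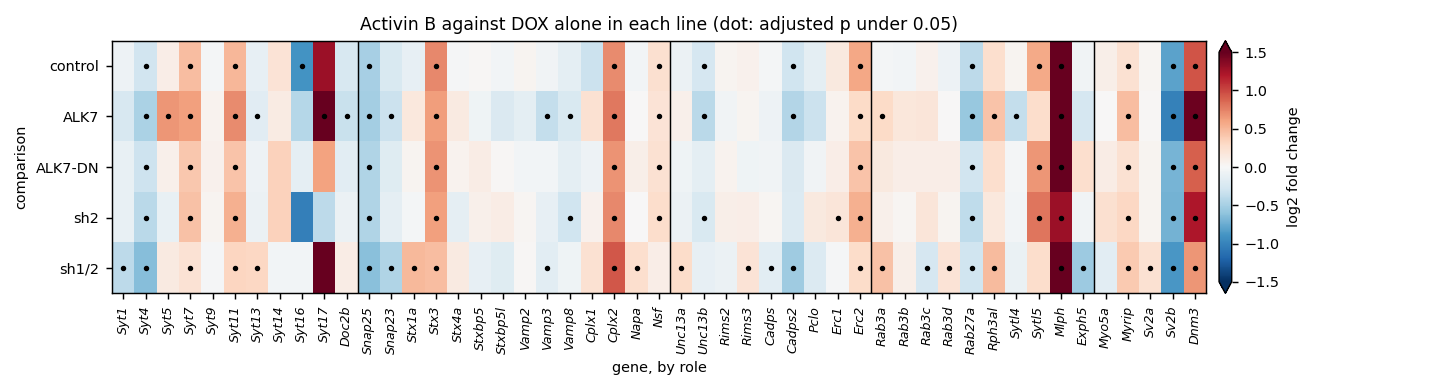
Log2 fold change of activin B against DOX alone for the 49 genes tested (columns, by role) in the 5 lines (rows), with colour limits at -1.5 and 1.5 and a dot where the adjusted p was under 0.05. Columns with a dot in every row are the 12 genes called in all 5 lines.

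Among the calcium sensors, Syt7 (build GRCm38, as for all positions of genes here, chromosome 19, 10389090 to 10453180, plus strand) encodes a high-affinity calcium sensor of insulin granule fusion. In control cells its libraries stood at 203, 185 and 196 CPM under DOX alone and at 287, 243 and 272 with activin B. In ALK7 cells they went from 180.5, 171 and 173 to 278, 260.2 and 267 CPM, and in ALK7-DN cells from 228, 209 and 206 to 302, 269 and 277. In sh2 cells they went from 184, 177 and 187 to 256, 236 and 252, and in sh1/2 cells from 169.5, 172 and 168 to 193, 194 and 203. Every activin B library was above every DOX library of its line, with the narrowest gap in sh1/2 cells. The log2 fold change was 0.46 ± 0.06 (SE, adjusted p = 9.28e-07) in control cells, 0.62 ± 0.06 in ALK7, 0.40 ± 0.06 in ALK7-DN and 0.44 ± 0.06 in sh2 cells. For sh1/2 cells it was 0.21 ± 0.06 (adjusted p = 0.00647), but with the GC trend of each library removed it turned to -0.21, adjusted p = 0.125, and with the replicate block added to -0.20, adjusted p = 0.0424.

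Syt11 (chromosome 3, 88744700 to 88775164, minus strand), a synaptotagmin that does not bind calcium, was also higher throughout. Control libraries stood at 128, 127 and 126 CPM under DOX alone and 187, 169.7 and 181 with activin B. In ALK7 cells they were at 136, 126 and 130.4 and 215, 209 and 217, and in ALK7-DN cells at 122, 123 and 126 and 164, 167 and 169. The sh2 libraries were at 109, 105 and 111 and 159.9, 146 and 164, and the sh1/2 libraries at 152, 159 and 155 and 198, 184 and 199.6. No line's groups overlapped. Its log2 fold change ranged from 0.32 ± 0.05 in sh1/2 (adjusted p = 1.04e-05) to 0.71 ± 0.05 in ALK7 cells (adjusted p = 8.94e-12).

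Syt4, an atypical synaptotagmin of dense-core granules linked to beta cell maturation, was lower with activin B in all 5 lines. Control libraries went from 146, 152 and 153 to 112, 142 and 117 CPM. ALK7 libraries went from 159.8, 149 and 156 to 115, 105 and 115, and ALK7-DN libraries from 122, 132 and 137 to 100.3, 105 and 109.7. The sh2 libraries went from 135, 135 and 145 to 106, 105 and 102, and the sh1/2 libraries from 245, 171 and 234 to 149, 130.2 and 139. The highest values were those of sh1/2 cells under DOX alone, where replicates 1 and 3 stood above replicate 2. Log2 fold changes were -0.28 ± 0.09 in control (adjusted p = 0.0362), -0.47 ± 0.09 in ALK7, -0.31 ± 0.09 in ALK7-DN, -0.40 ± 0.10 in sh2 and -0.64 ± 0.09 in sh1/2 cells. The call in control cells ended without any of the DOX replicates or without activin B replicate 1 or 3 (adjusted p 0.0575 to 0.151). In ALK7-DN cells it ended without DOX replicate 2 or 3 or activin B replicate 1 or 2 (0.0624 to 0.0974). In sh1/2 cells the change of Syt4 was -0.29 with the 3 libraries low on GC-rich genes left out (adjusted p = 0.0103).

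Of the other 8 calcium sensors, Syt5 was higher in ALK7 cells only among the lines (5.17, 5.49 and 4.76 to 7.84, 8.41 and 8.17 CPM, 0.66 ± 0.13, adjusted p = 0.000352), with log2 fold changes from -0.12 to 0.13 in the other lines. Whether ALK7 cells differed from the control was a separate test, which it did not pass. Doc2b, a soluble calcium sensor that binds MUNC13 and syntaxin, was lower in ALK7 cells (-0.34 ± 0.10, adjusted p = 0.0177), a call that ended without ALK7 DOX replicate 1 or activin B replicate 2 or 3 (0.0557 to 0.0817). Syt13 was lower in ALK7 cells (-0.17 ± 0.05, adjusted p = 0.0115) and higher in sh1/2 cells (0.31 ± 0.05, adjusted p = 3.6e-05). The ALK7 call of Syt13 ended without DOX replicate 1 or activin B replicate 3 (0.0514 to 0.0589). Syt1 was lower in sh1/2 cells (-0.40 ± 0.09), but not without the 3 libraries low on GC-rich genes (-0.21, adjusted p = 0.236). Syt9 and Syt14 passed in 0 of the 5 lines. The counts above also include Syt16 and Syt17, each called in a single line, whose levels were under 1 CPM.

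Among the SNAREs and their regulators, Snap25 (chromosome 2, 136713453 to 136782428, plus strand), the plasma membrane SNARE that pairs with syntaxin and VAMP2, was lower with activin B in all 5 lines. Control libraries stood at 104, 99.9 and 106 CPM under DOX alone and at 70.8, 78.9 and 70.6 with activin B. Those of ALK7 cells went from 95.8, 91.1 and 97.3 to 69.1, 63.5 and 66.2, and ALK7-DN libraries from 86.3, 90.3 and 93.8 to 68.1, 64.3 and 66. Those of sh2 cells went from 82.1, 81.5 and 83.1 to 60.1, 58.6 and 61.8, and the sh1/2 libraries from 113, 99.7 and 123 to 72.1, 72.7 and 71.9. All groups of a line lay apart, and the activin B levels were lowest in sh2 cells. The log2 fold change lay between -0.45 ± 0.06 (ALK7-DN, adjusted p = 2.56e-06) and -0.63 ± 0.06 (sh1/2, adjusted p = 9.49e-09), and was -0.50 ± 0.06 in control cells (adjusted p = 4.28e-07). In sh1/2 cells it was -0.37 with the GC trend of each library removed.

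Stx3 (chromosome 19, 11775118 to 11819403, minus strand), a syntaxin of granule-to-granule and granule-to-membrane fusion, moved the other way. Its control libraries moved from 42.2, 46.8 and 46.2 to 73.8, 78.3 and 71.3 CPM. In ALK7 cells they went from 41.3, 42.7 and 44.3 to 64.3, 65.2 and 67.8 and in ALK7-DN cells from 44.8, 47.8 and 47.2 to 71.2, 72.6 and 79.1. Libraries of sh2 cells moved from 43.7, 41.5 and 47.7 to 64, 71.1 and 68.8, and the sh1/2 libraries from 43.8, 41 and 45.6 to 59.5, 62.1 and 58.4. DOX values lay between 41.0 and 47.8 CPM in all lines, and each activin B library was above all of them. Fitted log2 fold changes were 0.72 ± 0.06 in control (adjusted p = 1.03e-09), 0.62 ± 0.06 in ALK7, 0.67 ± 0.06 in ALK7-DN, 0.62 ± 0.06 in sh2 and 0.47 ± 0.06 in sh1/2 cells (adjusted p = 2.29e-06).

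Cplx2 (chromosome 13, 54371349 to 54383917, plus strand), a complexin that binds assembled SNARE complexes and is among the most abundant of these transcripts, was higher in all 5 lines. Control libraries stood at 356, 311 and 315 CPM and, with activin B, at 604, 465 and 537. Libraries of ALK7 cells moved from 389, 353 and 354 to 665, 626 and 599.8, and ALK7-DN libraries from 349, 316 and 322 to 560.3, 511 and 497. Values in sh2 cells went from 343, 333 and 319.5 to 579, 529 and 537, and the sh1/2 libraries from 233, 267 and 225 to 478, 449.7 and 459.6. The sh1/2 cells started from the lowest level and had the largest fitted change. It was 0.94 ± 0.08 there (adjusted p = 3.1e-09), 0.71 ± 0.08 in control (adjusted p = 2.23e-07) and 0.67 ± 0.08 to 0.79 ± 0.08 in the other lines. Cplx1 passed in 0 of the 5 lines.

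Nsf (chromosome 11, 103821782 to 103954056, minus strand) encodes the ATPase that takes spent SNARE complexes apart. Libraries of control cells went from 127, 134 and 129 to 157, 149 and 155 CPM, ALK7 libraries from 141, 136 and 134 to 159, 156 and 159 and ALK7-DN libraries from 123, 126 and 131 to 145, 146 and 155. The sh2 libraries went from 119, 121 and 121 to 145, 139.7 and 147, and the sh1/2 libraries stood at 128, 124 and 132 and 144, 133 and 133. It was higher in the first 4 lines, by 0.21 ± 0.04 to 0.26 ± 0.04 (adjusted p 3.02e-05 to 0.000339). For sh1/2 cells the log2 fold change was 0.10 ± 0.04 (adjusted p = 0.0619). Its partner Napa, which encodes alpha-SNAP, was called higher in sh1/2 cells alone (0.26 ± 0.08), and with the GC correction stood at 0.01, adjusted p = 0.955. The call of Napa also ended without sh1/2 DOX replicate 1 or 3 or activin B replicate 2 (adjusted p 0.0515 to 0.133).

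The core partners of Snap25, Vamp2 and Stx1a, were called lower in 0 of the 5 lines. Vamp2 (chromosome 11, 69088490 to 69092384, plus strand) stood at 126, 119 and 123 CPM under DOX alone and 132, 118 and 127 with activin B in control cells. ALK7 libraries were at 141, 126 and 137 and 129.7, 109 and 125, and ALK7-DN libraries at 129, 111 and 125 and 126, 105 and 123. In sh2 cells they were at 130.3, 114 and 119 and 135, 114 and 124, and in sh1/2 cells at 137, 115 and 122 and 140, 109 and 130.3. In every group replicate 2 was the lowest. Its log2 fold changes were between -0.15 ± 0.09 (ALK7) and 0.04 ± 0.09 (control), with adjusted p from 0.276 to 0.908.

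Stx1a (chromosome 5, 135023482 to 135051100, plus strand), the plasma membrane syntaxin that holds docked granules, stood at 30.4, 26.8 and 29.5 CPM in control cells under DOX alone and at 30.4, 19.4 and 29.9 with activin B. ALK7 libraries were at 28.8, 27.4 and 26.1 and 32.3, 30.3 and 29.2, and ALK7-DN libraries at 35, 29.4 and 27.5 and 34.9, 32.3 and 27.3. The sh2 libraries were at 32.4, 29.5 and 30.5 and 30.4, 27.4 and 32.3, and the sh1/2 libraries at 18.8, 30.4 and 18.1 and 30.1, 32.2 and 32.5. Its lowest values were in the 3 libraries low on GC-rich genes, while replicate 3 of ALK7-DN and of ALK7 with activin B, low on such genes within their groups, stood at 27.3 and 29.2 CPM. For sh1/2 cells it was called higher (0.49 ± 0.16, adjusted p = 0.0196) although the groups overlapped. That call ended with the GC correction (0.12, adjusted p = 0.202), and without sh1/2 DOX replicate 1 or 3 or activin B replicate 2 or 3 (adjusted p 0.0536 to 0.136). In the other 4 lines the log2 fold change was -0.12 to 0.16, with adjusted p of at least 0.521.

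Among the remaining SNARE genes, Snap23, the widely expressed relative of Snap25, was lower in ALK7 cells (-0.33 ± 0.09, adjusted p = 0.00563) and in sh1/2 cells (-0.45 ± 0.09, adjusted p = 0.000344). The latter stood at -0.15, adjusted p = 0.354 without the libraries low on GC-rich genes. Vamp3 was lower in the same lines (-0.36 ± 0.06 and -0.16 ± 0.06), and its sh1/2 call ended without any of the 5 libraries sh1/2 DOX replicates 1 and 3 and sh1/2 activin B replicates 1 to 3 (adjusted p 0.0694 to 0.186). Vamp8, a granule SNARE, was lower in ALK7 (-0.22 ± 0.08) and sh2 cells (-0.30 ± 0.08). The ALK7 call of Vamp8 ended without any of the DOX replicates or activin B replicate 1 or 3 (0.0771 to 0.174), and the sh2 call without replicate 1 of either group (0.0585 to 0.0701). Stx4a and the tomosyns Stxbp5 and Stxbp5l passed in 0 of the 5 lines.

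Among the priming and scaffold proteins, Erc2 (chromosome 14, 27622428 to 28478537, plus strand), a scaffold of the site of release, was higher in all 5 lines. Control libraries went from 19.9, 22 and 22.6 to 30.8, 34.9 and 30.7 CPM. ALK7 libraries went from 20.8, 22 and 22.7 to 26.3, 26.8 and 26.8, and ALK7-DN libraries from 23.7, 22.1 and 25.7 to 30.9, 31.4 and 34.2. Those of sh2 cells went from 19.8, 20.7 and 23 to 32.3, 30 and 29.6, and the sh1/2 libraries from 23.5, 20.5 and 25.4 to 27.1, 29.2 and 27.8. The gap between groups was narrowest in sh1/2 cells. The log2 fold changes were 0.58 ± 0.08 in control (adjusted p = 3.55e-06), 0.29 ± 0.08 in ALK7, 0.43 ± 0.08 in ALK7-DN, 0.53 ± 0.08 in sh2 and 0.28 ± 0.08 in sh1/2 cells (adjusted p = 0.00857). With only the 6 sh1/2 libraries fitted the last call ended (0.29, adjusted p = 0.109).

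Unc13b (chromosome 4, 43058953 to 43264871, plus strand), which encodes a MUNC13 priming factor, went from 61, 58.5 and 62 to 51.3, 53.3 and 47.9 CPM in control cells. ALK7 libraries moved from 57.1, 52.8 and 52 to 42.6, 38.2 and 41.2, and sh2 libraries from 53.1, 57.5 and 59.2 to 48.9, 48.2 and 47.6. It was lower in these 3 lines, with log2 fold changes of -0.25 ± 0.06, -0.41 ± 0.06 and -0.23 ± 0.06 (adjusted p 0.00215, 5.54e-06 and 0.00491). In ALK7-DN and sh1/2 cells the log2 fold changes were -0.15 ± 0.06 and -0.12 ± 0.06 (adjusted p 0.082 and 0.0945). With only the control libraries fitted the control call ended (-0.25, adjusted p = 0.0588).

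Cadps2 (chromosome 6, 23262773 to 23839421, minus strand), a CAPS priming factor of dense-core granules, went from 23.7, 24.4 and 24.3 to 19, 21.1 and 18.9 CPM in control cells and from 20.4, 21.9 and 23 to 16.1, 14.8 and 17.1 in ALK7 cells. In sh1/2 cells it went from 37.1, 32 and 39.2 to 26.8, 23.6 and 24.3. It was lower in these 3 lines (-0.29 ± 0.08, -0.44 ± 0.08 and -0.53 ± 0.08), and the groups did not overlap. The log2 fold changes were -0.21 ± 0.08 and -0.20 ± 0.08 in ALK7-DN and sh2 cells (adjusted p 0.0773 and 0.0881). With only the control libraries fitted its control call ended (-0.29, adjusted p = 0.0524).

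The other priming genes were called in at most 1 line. Unc13a, Rims3 and Cadps were called in sh1/2 cells (log2 fold changes 0.27, 0.21 and -0.16), and all 3 calls ended with the GC correction, under which they stood at -0.02, adjusted p = 0.854, at -0.01, adjusted p = 0.902 and at -0.06, adjusted p = 0.394. Each of the 3 calls also ended without sh1/2 DOX replicate 1 or 3 (adjusted p 0.103 to 0.203) or without sh1/2 activin B replicate 3 (0.0698 to 0.101). Those of Rims3 and Cadps ended without activin B replicate 2 (0.0624 and 0.0747), and that of Rims3 without replicate 1 (0.106). Erc1 was called higher in sh2 cells, with overlapping groups (0.19), and this call ended without replicate 1 or 2 of DOX or 1 or 3 of activin B (adjusted p 0.11 to 0.171). Rims2 and Pclo passed in 0 of the 5 lines. The further row with the symbol Pclo, not counted as a member, was lower in sh1/2 cells (-0.69 ± 0.23, adjusted p = 0.0211).

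Among the Rab GTPases and their effectors, Mlph (chromosome 1, 90915085 to 90951142, plus strand) encodes melanophilin, which ties Rab27a-bearing organelles to myosin Va. It had the largest change of all members in every line. Control libraries stood at 0.673, 0.906 and 0.676 CPM under DOX alone and at 5.41, 4.67 and 4.5 with activin B. Libraries of ALK7 cells moved from 0.829, 0.91 and 1.49 to 6.91, 7.22 and 6.68, and ALK7-DN libraries from 0.618, 0.774 and 0.945 to 3.7, 4.2 and 4.29. Libraries of sh2 cells moved from 0.378, 0.585 and 0.54 to 1.56, 0.989 and 1.13, and the sh1/2 libraries from 0.325, 0.311 and 0.588 to 1.27, 1.23 and 1.14. With activin B the lowest library of the PB-33 lines stood at 3.70 CPM and the highest library of the knock-down lines at 1.56. The log2 fold change was 2.67 ± 0.21 in control (adjusted p = 5.74e-10, a 6.38-fold change), 2.69 ± 0.20 in ALK7 and 2.38 ± 0.21 in ALK7-DN cells. It was 1.28 ± 0.24 in sh2 (adjusted p = 0.000342) and 1.63 ± 0.25 in sh1/2 cells (adjusted p = 2.48e-05).

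Rab27a (chromosome 9, 73044854 to 73097629, plus strand), the GTPase that recruits Mlph, Myrip and granuphilin to granules, was lower in all 5 lines. Its control libraries moved from 77.4, 84 and 79.6 to 60.8, 60.7 and 62.3 CPM. ALK7 libraries went from 84.4, 87.8 and 89.4 to 59.8, 56.7 and 59.6, and ALK7-DN libraries from 89.7, 87.7 and 90.4 to 75.9, 71.7 and 72.7. Values in sh2 cells went from 84.9, 81.5 and 81.2 to 65.4, 62.3 and 62.8, and the sh1/2 libraries from 78.7, 74.7 and 78.3 to 66.4, 61.5 and 61. The groups lay apart in each line. Log2 fold changes were -0.39 ± 0.04 in control (adjusted p = 1.34e-07), -0.57 ± 0.04 in ALK7, -0.28 ± 0.04 in ALK7-DN, -0.38 ± 0.04 in sh2 and -0.29 ± 0.04 in sh1/2 cells (adjusted p = 1.25e-05). Its effectors Mlph and Myrip were called higher in the same 5 lines and Sytl5 in 3. Granuphilin (Sytl4) was higher in 0 lines and lower in ALK7 cells, and Exph5 was lower in sh1/2 cells.

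Rab3a (chromosome 8, 70754679 to 70758677, plus strand), the main Rab3 of beta cell granules, stood at 75.9, 74.7 and 77.1 CPM under DOX alone and 79.5, 66.9 and 75.8 with activin B in control cells. ALK7 libraries were at 68.3, 70.2 and 67.6 and 82.8, 89.8 and 78.2, and ALK7-DN libraries at 68.5, 64.5 and 61.7 and 76.9, 72.3 and 65.9. The sh2 libraries were at 68.6, 68 and 63.9 and 68.1, 73.5 and 70.3, and the sh1/2 libraries at 49.5, 68.6 and 48.2 and 71.7, 77.4 and 76.3. The low sh1/2 DOX values were those of replicates 1 and 3. It was called higher in ALK7 (0.28 ± 0.09, adjusted p = 0.0244) and sh1/2 cells (0.44 ± 0.09, adjusted p = 0.00101), and its change was -0.03 ± 0.09 in control cells (adjusted p = 0.851). The ALK7 call ended without DOX replicate 1 or 3 or activin B replicate 1 or 2 (adjusted p 0.0528 to 0.126), and the sh1/2 call without the 3 libraries low on GC-rich genes (0.13, adjusted p = 0.417).

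Of the other effectors, Sytl5, a synaptotagmin-like Rab27 effector, was higher in control (0.56 ± 0.17, adjusted p = 0.0192), ALK7-DN (0.66 ± 0.17) and sh2 cells (0.80 ± 0.17). The control call ended without DOX replicate 1 or 2 or activin B replicate 2 or 3 (adjusted p 0.0578 to 0.0805), and the ALK7-DN call without activin B replicate 3 (0.0539). Noc2 (Rph3al) was higher in ALK7 (0.43 ± 0.10) and sh1/2 cells (0.48 ± 0.10), with a value of 0.22, adjusted p = 0.213 in sh1/2 cells without the libraries low on GC-rich genes. Granuphilin (Sytl4, chromosome X, 133936385 to 133981812, minus strand) stood at 545, 546 and 575 CPM in ALK7 cells under DOX alone and at 425, 418 and 459 with activin B, where it was lower (-0.36 ± 0.07, adjusted p = 0.000735). In the other 4 lines its log2 fold change was -0.10 to 0.04.

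Exph5 (chromosome 9, 53301670 to 53377514, plus strand), a further Rab27 effector, was called lower in sh1/2 cells (4.45, 3.39 and 4.49 to 2.93, 2.68 and 2.83 CPM, -0.54 ± 0.18, adjusted p = 0.021), but not without sh1/2 DOX replicate 1 or 3 or activin B replicate 2 or 3 (adjusted p 0.0515 to 0.0946) or with the GC correction. Rab3c and Rab3d were called in sh1/2 cells (-0.25 and 0.20). With the GC correction they stood at 0.01, adjusted p = 0.919 and 0.03, adjusted p = 0.733. Neither call held without sh1/2 DOX replicate 1 or 3 (adjusted p 0.0768 to 0.126). The Rab3c call also ended without sh1/2 activin B replicate 1 (0.0561) and the Rab3d call without replicate 2 (0.062). Rab3b passed in 0 of the 5 lines.

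Among the vesicle and transport proteins, Dnm3 (chromosome 1, 161982453 to 162478034, minus strand), a dynamin that pinches off membrane, was higher in all 5 lines. Libraries of control cells went from 24, 20.6 and 22.1 to 43.6, 43.7 and 40.5 CPM. Those of ALK7 cells went from 19.5, 19.9 and 19.6 to 54.1, 52.8 and 57, and ALK7-DN libraries from 19.7, 18.6 and 18.5 to 35.2, 34 and 36.9. The sh2 libraries went from 10.8, 10.8 and 11.6 to 26, 25.7 and 25.3, and the sh1/2 libraries from 10.1, 8.0 and 8.29 to 13.8, 13.9 and 14.2. The highest level in sh1/2 cells with activin B was below the lowest of any PB-33 library under DOX alone. Fitted log2 fold changes were 0.94 ± 0.07 in control (adjusted p = 7.46e-11), 1.47 ± 0.07 in ALK7 (adjusted p = 1.31e-14), 0.90 ± 0.07 in ALK7-DN, 1.21 ± 0.07 in sh2 and 0.66 ± 0.07 in sh1/2 cells (adjusted p = 1.18e-07).

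Sv2b (chromosome 7, 75114894 to 75309262, minus strand), a glycoprotein of secretory vesicles, had the largest decrease of the members called in all 5 lines. Control libraries went from 52.9, 55.6 and 57.2 to 30.6, 34.7 and 29.9 CPM. Libraries of ALK7 cells moved from 57.9, 56.4 and 59.3 to 28.3, 27.5 and 30.1, and ALK7-DN libraries from 39.1, 40.8 and 42 to 24, 25.5 and 25.9. Those of sh2 cells went from 40.3, 39.7 and 42.4 to 25.2, 24.7 and 24.7, and the sh1/2 libraries from 47.8, 38.7 and 49.4 to 25.5, 23 and 25.5. Starting levels differed, yet all activin B libraries lay between 23.0 and 34.7 CPM. The log2 fold changes were -0.80 ± 0.07 in control (adjusted p = 4.84e-09), -1.01 ± 0.07 in ALK7, -0.69 ± 0.07 in ALK7-DN, -0.71 ± 0.07 in sh2 and -0.88 ± 0.07 in sh1/2 cells.

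Myrip (chromosome 9, 120301513 to 120474841, plus strand), which links Rab27a on granules to myosin motors and actin, was called higher in all 5 lines. Its control libraries moved from 16.6, 14.9 and 16 to 19.3, 17.6 and 19 CPM. ALK7 libraries went from 14, 14 and 13.2 to 17.9, 19.4 and 19.6, and ALK7-DN libraries from 15, 13 and 14.2 to 16.8, 15.3 and 17.3. Libraries of sh2 cells moved from 11.8, 11.8 and 12.5 to 14.9, 15.5 and 14.5, and the sh1/2 libraries from 8.75, 7.75 and 7.54 to 11.1, 11 and 9.55. In control and ALK7-DN cells the gaps between the groups were narrow. Log2 fold changes were 0.23 ± 0.07 in control (adjusted p = 0.0243), 0.46 ± 0.07 in ALK7, 0.23 ± 0.07 in ALK7-DN (adjusted p = 0.0319), 0.31 ± 0.07 in sh2 and 0.40 ± 0.08 in sh1/2 cells. The control call ended without DOX replicate 2 or 3 or activin B replicate 1 or 3 (adjusted p 0.0547 to 0.12), and the ALK7-DN call likewise without DOX replicate 2 or 3 or activin B replicate 1 or 3 (0.0701 to 0.186). Within sh1/2 cells the GC correction gave 0.16, adjusted p = 0.277. Sv2a was called higher in sh1/2 cells (0.23 ± 0.06), which ended with the GC correction (0.06, adjusted p = 0.297) and without sh1/2 DOX replicate 3 (adjusted p 0.0664). Myo5a, the myosin Va motor, passed in 0 of the 5 lines.

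Across the 49 genes, the log2 fold change in sh1/2 cells ranked with the GC content of the transcripts (Spearman 0.653, and 0.611 over 15453 genes), and in ALK7 cells the correlations were 0.451 and 0.269. They were 0.168 and -0.238 in control cells, 0.163 and -0.172 in ALK7-DN and 0.0978 and -0.197 in sh2 cells. The difference of the response from that of control cells ranked with GC content in ALK7 cells (0.543 and 0.541) and in sh1/2 cells (0.627 and 0.677). These correlations are across genes of the same libraries and are given as a description.

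A list of 74 further tested genes of exocytosis (exocyst subunits, other SNAREs and synaptotagmins and regulators of Rab3 among them) was read the same way. It had 11 genes higher and 6 lower in control cells, 14 and 6 in ALK7, 9 and 7 in ALK7-DN, 10 and 6 in sh2 and 21 and 15 in sh1/2 cells. In this order the higher genes made up 14.9%, 18.9%, 12.2%, 13.5% and 28.4% of the list. Over all genes the shares were 10.7%, 13%, 8.48%, 10.7% and 17.5%. The lower genes made up 8.11%, 8.11%, 9.46%, 8.11% and 20.3%, against 9.66%, 12.3%, 7.62%, 8.91% and 19.1% of all genes. Madd, an exchange factor that activates Rab3 and Rab27, changed by 1.34 ± 0.07 in control and by 1.31 ± 0.07 in sh1/2 cells (adjusted p 4.38e-13 and 1.69e-12). Rph3a, which encodes the Rab3 effector rabphilin, changed by 2.21 ± 0.20 and 1.28 ± 0.20 in the same lines (adjusted p 4.13e-09 and 2.45e-05), and the exocyst subunit gene Exoc6b by -0.99 ± 0.07 and -0.87 ± 0.07 (adjusted p 1.06e-10 and 1.51e-09). These 3 were picked from the list after their values were seen.

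The next comparisons asked whether the response differed from that of control cells, by an interaction term. They share the control libraries. In ALK7 cells 11 of the 49 genes and 1595 of all 15627 had an unadjusted p under 0.05. After adjustment 1 of the 49 genes passed, against 0.0256% of all genes. It was Dnm3, whose response was larger by 0.54 ± 0.09 than in control cells (adjusted p = 0.0313; libraries above). The call ended when any of the 6 ALK7 libraries, control DOX replicate 1 or 3 or control activin B replicate 2 or 3 was left out (adjusted p 0.0556 to 0.165, values 0.47 to 0.56). Replicate numbers were taken to pair the wells within a line, which the main fit did not use. With the replicate as a block 3 genes passed, the others being Sytl4 (-0.40, adjusted p = 0.0293) and Vamp3 (-0.30, adjusted p = 0.0307). In ALK7-DN cells 0 members and 0% of all genes passed, and 0 members in DESeq2. An unadjusted p under 0.05 was found for 0 members and 342 of all genes. In sh2 cells 0 members passed (0.0128% of all genes), and 0 in DESeq2. An unadjusted p under 0.05 was found for 2 members and 527 of all genes. For Mlph in sh2 cells the difference was -1.4 ± 0.33 (unadjusted p = 0.000316, adjusted p = 0.449). In both of these lines the term also holds the difference between batches.

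In sh1/2 cells the response of 6 members differed from control cells, 3 upward and 3 downward, against 17.7% of all genes. An unadjusted p under 0.05 was found for 20 members and 6132 of all genes. Syt13 (chromosome 2, 92915098 to 92956058, plus strand) stood at 468, 443 and 472 CPM in control cells under DOX alone and 447, 378 and 444 with activin B, and at 344, 357 and 343 and 429.6, 427 and 439.8 in sh1/2 cells. It was lower in all sh1/2 DOX libraries than in any other of these groups. The difference of responses was 0.44 ± 0.07 (adjusted p = 0.000633), and was past the test in each setting but the fit of these 12 libraries alone (0.44, adjusted p = 0.102). Rab3d (chromosome 9, 21907491 to 21918192, minus strand), a Rab3 of secretory granules, stood at 61.3, 57.6 and 58.2 and 60.3, 50.5 and 57.4 CPM in control cells and at 45.7, 50.7 and 43.7 and 53.2, 54.7 and 53.5 in sh1/2 cells. Rab3d and Rab3a differed by 0.28 ± 0.09 and 0.47 ± 0.13 (adjusted p 0.0447 and 0.0304). With the GC correction these were 0.05, adjusted p = 0.713 and 0.11, adjusted p = 0.33.

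The response was smaller in sh1/2 than in control cells for Mlph (-1.05 ± 0.34, adjusted p = 0.0438), Stx3 (-0.26 ± 0.08, adjusted p = 0.0426) and Syt7 (-0.25 ± 0.08, adjusted p = 0.0415). Mlph missed the threshold with the replicate block (-1.03, adjusted p = 0.0511) and Stx3 with the GC correction (-0.19, adjusted p = 0.095). Each of these calls, and those of Rab3a and Rab3d, ended without control DOX replicate 1 or 3, sh1/2 DOX replicate 1 or 3, or sh1/2 activin B replicate 2 or 3 (adjusted p 0.0553 to 0.229). Without control activin B replicate 2 the calls of Mlph (adjusted p = 0.113), Stx3 (0.146), Rab3a (0.112) and Rab3d (0.164) ended. Without sh1/2 activin B replicate 1 the calls of Mlph (0.0517), Stx3 (0.0612), Syt7 (0.0635) and Rab3d (0.057) ended. Syt7 alone also lost its call without control DOX replicate 2 (0.0701) or control activin B replicate 1 (0.0642) or 3 (0.0582). The number of members that passed was 17 with the replicate block, 15 in DESeq2, 6 with the GC correction (2 upward and 4 downward, 3 of them among the 6) and 1 without the libraries low on GC-rich genes, and 0 with only these 12 libraries fitted. With single libraries left out it was 26 without sh1/2 DOX replicate 2, 15 without control activin B replicate 1, 3 without sh1/2 activin B replicate 1 and 2 without control activin B replicate 2. It was 1 without control DOX replicate 1 or 3, sh1/2 DOX replicate 1 or 3 or sh1/2 activin B replicate 2 or 3.

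Under DOX alone, the lines were set against the control. ALK7 cells had 0 members past the test (1.03% of all genes were higher and 0.953% lower). An unadjusted p under 0.05 was found for 12 of the 49 members and for 2134 of the 15627 genes. With the GC correction the number in ALK7 cells was 3. ALK7-DN cells had 0 higher and 1 lower (0.378% and 0.589% of all genes). The gene was Sv2b, at 39.1, 40.8 and 42 CPM against 52.9, 55.6 and 57.2 in the control (-0.44 ± 0.07, adjusted p = 0.00118). In ALK7-DN cells the number was 4 with the GC correction, and 2 in DESeq2 or with only the groups compared in the fit. There, 15 members and 1319 of all genes had an unadjusted p under 0.05. The sh2 DOX libraries were of another batch and were not compared with the control.

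In sh1/2 cells under DOX alone 11 members were higher and 18 lower than in control cells, against 19.4% and 18.6% of all genes. The median log2 fold change was -0.11 against 0.00 over all genes. By role, 5 of 9 priming and scaffold genes were higher and 1 lower. Of 5 vesicle and transport genes 4 were lower and 0 higher, and of 10 Rab and effector genes 5 and 1. The 14 SNARE genes and regulators had 1 higher and 5 lower, and the 11 calcium sensors 4 and 3. The log2 fold changes had Spearman correlations with GC content of -0.377 over the 49 genes and -0.373 over 15453 genes. Of the higher priming genes, Unc13b, Cadps and Erc1 stood at 0.18, 0.20 and 0.31. Without the libraries low on GC-rich genes they stood at 0.13, 0.05 and 0.20. Pclo and Cadps2 were called in all 14 alternative settings.

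Dnm3 stood at 10.1, 8.0 and 8.29 CPM in sh1/2 against 24, 20.6 and 22.1 in control cells (-1.33 ± 0.07, adjusted p = 6.3e-13). Cplx1 (chromosome 5, 108518554 to 108550024, minus strand) stood at 2.42, 2.61 and 2.19 against 6.01, 5.44 and 4.78 CPM (-1.16 ± 0.17, adjusted p = 6.81e-06) and Myrip at 8.75, 7.75 and 7.54 against 16.6, 14.9 and 16 (-0.98 ± 0.08, adjusted p = 3.43e-10). The groups of all 3 genes lay well apart. Syt5 (chromosome 7, 4539765 to 4547541, minus strand) was higher, at 12.1, 16.3 and 10.6 against 6.2, 6.62 and 6.3 CPM (1.03 ± 0.13, adjusted p = 8.75e-07). Pclo (chromosome 5, 14514918 to 14863459, plus strand), the scaffold piccolo, was higher too, at 285, 215 and 313 against 139, 132 and 145 CPM (0.96 ± 0.14, adjusted p = 5.11e-06). Each of these 5 calls was past the test in all 14 alternative settings. The further row with the symbol Pclo differed by 0.78 ± 0.23 (adjusted p = 0.0102).

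Mlph was lower in sh1/2 cells (-0.95 ± 0.27, adjusted p = 0.00716; without control DOX replicate 2, 0.0727), as were granuphilin (Sytl4, 317, 267 and 335 against 521, 572 and 567 CPM, -0.85 ± 0.08), Sv2a (-0.80 ± 0.06) and Cplx2 (-0.44 ± 0.08). Syt4 (0.53 ± 0.09) and Cadps2 (0.58 ± 0.08) were higher. Syt4 stood at 0.19, adjusted p = 0.0785 without the libraries low on GC-rich genes, and Rab3a, lower with -0.45 ± 0.09 in the full fit, at -0.15, adjusted p = 0.228. The value of Syt7 turned from -0.20 ± 0.06 to 0.12, adjusted p = 0.371 with the GC correction. The other calls ranged from -0.50 to 0.74. Among them, that of Unc13b ended without control DOX replicate 2 or sh1/2 DOX replicate 3 (adjusted p 0.0645 to 0.0665). That of Exph5 ended without any of the control replicates or sh1/2 DOX replicate 2 (0.0539 to 0.114). With only the groups compared in the fit, the calls of Stx4a, Vamp8, Unc13b, Cadps, Exph5, Napa and Sv2b ended (0.0613 to 0.139). Leaving out the libraries low on GC-rich genes brought other values nearer to no change. Stx4a went from -0.47 to -0.15, Stxbp5l from 0.52 to 0.19 and Vamp8 from -0.37 to -0.15. Rims3 went from -0.37 to -0.26, Sytl5 from 0.74 to 0.42 and Napa from -0.34 to -0.17. The GC correction called 30 members in sh1/2 cells, of which 28 were among the 29. With single libraries left out the number ran from 26 (without control DOX replicate 2) to 35 (without sh1/2 DOX replicate 2).

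**Figure D4:**
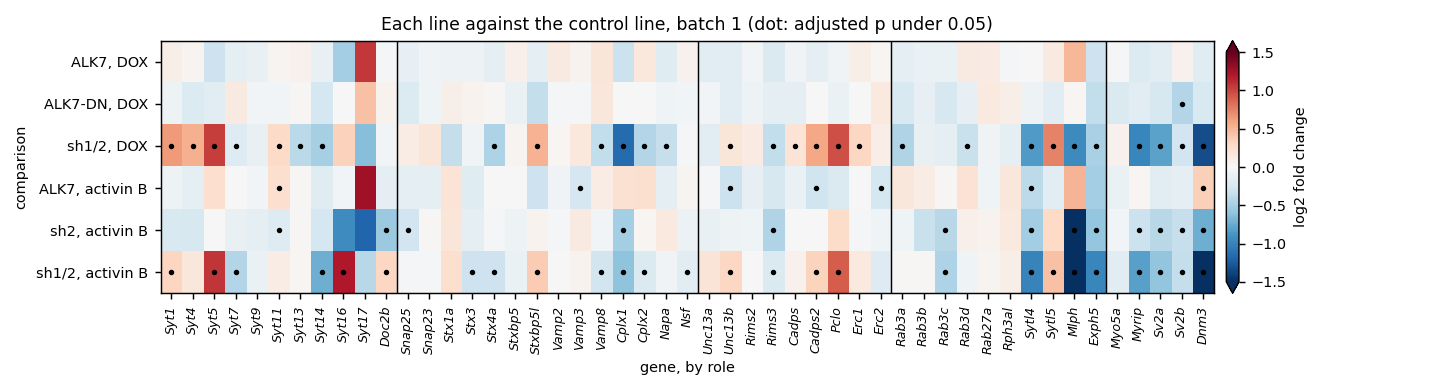
Log2 fold change of each line against control cells for the 49 genes tested (columns, by role), under DOX alone and with activin B (rows), with a dot where the adjusted p was under 0.05. The sh1/2 rows hold 29 and 26 dots, and the row of ALK7 under DOX alone holds 0.

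With activin B, the lines of batch 1 were set against control cells with activin B. ALK7 cells had 2 members higher and 5 lower (2.09% and 2.44% of all genes). Dnm3 (0.36 ± 0.07, adjusted p = 0.00134) and Syt11 (0.26 ± 0.05, adjusted p = 0.00104) were higher. The lower genes were Sytl4 (425, 418 and 459 against 533, 599 and 577 CPM, -0.39 ± 0.07), Unc13b (-0.32 ± 0.06), Cadps2 (-0.30 ± 0.08), Erc2 (-0.27 ± 0.08) and Vamp3 (-0.25 ± 0.06). The calls of Cadps2, Erc2 and Vamp3 ended without control activin B replicate 2 (adjusted p 0.191, 0.269 and 0.157), without ALK7 activin B replicate 1 (0.103, 0.146 and 0.104) and without ALK7 activin B replicate 2 (0.195, 0.129 and 0.0873). Those of Cadps2 and Erc2 ended without control activin B replicate 3 (0.056 and 0.0631), and that of Erc2 without ALK7 activin B replicate 3 (0.0949). The number of members was 4 without ALK7 activin B replicate 1 or 2. With only these 6 libraries fitted, 0 members passed, while DESeq2 called 11.

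In sh2 cells with activin B 0 members were higher and 13 lower (3.06% and 6.18% of all genes). Mlph stood at 1.56, 0.989 and 1.13 CPM against 5.41, 4.67 and 4.5 in control cells (-1.99 ± 0.20, adjusted p = 2.27e-07), and Dnm3 at 26, 25.7 and 25.3 against 43.6, 43.7 and 40.5 (-0.73 ± 0.07, adjusted p = 4.32e-08). The groups were apart for both. Doc2b (chromosome 11, 75768966 to 75796049, minus strand) stood at 7.19, 6.71 and 7.68 against 10.4, 10 and 11.3 CPM (-0.56 ± 0.11, adjusted p = 0.000876), Sytl4 at 393, 392 and 409.7 against 533, 599 and 577 (-0.52 ± 0.07, adjusted p = 3.73e-05) and Exph5 at 3.81, 3.39 and 3.99 against 5.52, 6.21 and 4.96 (-0.58 ± 0.17, adjusted p = 0.0356). All sh2 values were the lower ones. The call of Exph5 ended without control activin B replicate 1 or 2 or any of the sh2 replicates (adjusted p 0.0651 to 0.146). Rims3, Rab3c, Sv2a, Sv2b, Myrip, Snap25, Syt11 and Cplx1 were lower, with log2 fold changes of -0.45, -0.42, -0.42, -0.35, -0.32, -0.29, -0.20 and -0.51. The Cplx1 groups overlapped and its call ended without control activin B replicate 1 or sh2 activin B replicate 2 or 3 (0.15 to 0.324), and that of Syt11 without sh2 activin B replicate 2 (0.0624). With only these 6 libraries fitted 4 members passed, all of them among the 13.

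With activin B, sh1/2 cells had 9 members higher than control cells and 17 lower (16.9% and 18.3% of all genes). Mlph (1.27, 1.23 and 1.14 CPM, -2.0 ± 0.20, adjusted p = 2.26e-08) and Dnm3 (13.8, 13.9 and 14.2 CPM, -1.61 ± 0.07, adjusted p = 1.28e-14) were again lower than in control cells. Sytl4 stood at 284, 279 and 293 against 533, 599 and 577 CPM (-1.0 ± 0.08) and Exph5 at 2.93, 2.68 and 2.83 against 5.52, 6.21 and 4.96 (-0.98 ± 0.17). Both were lower with no overlap. Syt5 was higher, at 15.1, 13.8 and 14 against 7.56, 6.17 and 6.69 CPM (1.07 ± 0.13, adjusted p = 3.79e-07), and Pclo at 247, 211 and 246 against 122, 133 and 120.4 (0.91 ± 0.14, adjusted p = 1.06e-05). The further row with the symbol Pclo did not pass here (0.11 ± 0.23, adjusted p = 0.752). Of the 3 libraries low on GC-rich genes only control activin B replicate 2 enters this comparison. Syt7 (-0.45 ± 0.06), Stx3 (-0.31 ± 0.06) and Myrip (-0.82 ± 0.07) were lower too, and Unc13b (0.31 ± 0.06) and Cadps2 (0.34 ± 0.08) higher. The other calls, apart from Syt16, ranged from -0.74 to 0.44. Those of Stx4a, Stxbp5l, Vamp8, Rims3, Sytl5, Cplx1, Cplx2 and Doc2b each ended without at least 1 of the 6 libraries (adjusted p 0.0505 to 0.278), and Stx4a, Rims3 and Cplx2 had overlapping groups. In this comparison the summed alpha cell markers stood at 415 CPM in sh1/2 against 149 in control cells, and their part in the result was not tested.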

How the data were processed

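RNA was sequenced in 30 libraries, 10 groups of 3. The authors deposited whole-number read counts per gene, per the file headers and values. The submitters' processing notes name bcl2fastq 2.17, cutadapt 1.4.2, HISAT2, featureCounts 1.4.4, edgeR and build mm10. The strand setting and the treatment of multi-mapping reads are not given in the sources used here. Library totals were 18904884 to 34740789 counts.

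From the deposited counts, edgeR 4.0.16 (R 4.3.3; filterByExpr, TMM, quasi-likelihood F test) was fitted to 15627 genes and all 30 libraries with 10 group means (20 residual degrees of freedom), with Benjamini-Hochberg adjustment over all genes and a threshold of 0.05. Fold changes are log2 with a standard error from the F statistic. CPM values are scaled by TMM. Positions, lengths and GC content came from GENCODE M21 (GRCm38), and promoters from RefSeq (GRCm38.p6). The script was tested on simulated data. The members, lists and settings were chosen with earlier results of these data known.

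Values in every library were given for genes called in the same direction in at least 4 of 5 activin B comparisons. The same was done for Snap25, Stx1a, Vamp2, Syt7, Rab3a and Rab27a. For up to 5 called genes with the largest change and no overlap in each line comparison, at least the libraries compared were given. This also holds for up to 5 called genes with the smallest p in each interaction. Genes under 1 CPM were named by level only, and Rab3d was added after its values were seen. Same-numbered wells of a line deviated together (correlations 0.102 to 0.492 over the 5 lines, every pair above 0.1), so replicate numbers were taken to pair wells within lines, but not across lines. In ALK7-DN cells DOX replicate 2 correlated with activin B replicate 2 by 0.102 and with replicate 3 by 0.104, so its pairing is not settled. Alternatives were RLE scaling, no filter, a GC correction, the replicate block, both together, DESeq2 1.42.0, only the groups compared, and left-out libraries. ALK7-DN with activin B and sh2 under DOX alone were not compared with control cells, since they were of another batch.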

Additional observations from a re-analysis of the deposited data

Results flagged for a closer look

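Flagged here are the members whose response to activin B differed from that of control cells by the interaction term. In ALK7 cells the response of Dnm3 was larger by 0.54 on the log2 scale (adjusted p = 0.0313 in edgeR's quasi-likelihood test). In sh1/2 cells the difference was 0.44 for Syt13, 0.47 for Rab3a and 0.28 for Rab3d, and -0.25 for Syt7, -0.26 for Stx3 and -1.05 for Mlph. With the GC correction Rab3a stood at 0.11, adjusted p = 0.33, Rab3d at 0.05, adjusted p = 0.713 and Stx3 at -0.19, adjusted p = 0.095. Leaving out the 3 libraries low on GC-rich genes leaves 1 sh1/2 DOX library. The differences were then -0.33 for Syt7, -0.13 for Stx3, -0.75 for Mlph, 0.10 for Rab3a and 0.09 for Rab3d.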

How the results depend on the processing

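Of 184 member calls over the 15 comparisons, 103 held in every setting tried, 81 were lost in at least 1 and 5 changed direction. The latter all concern sh1/2 cells and the GC correction. With the correction, and with the correction and replicate block, activin B changed Syt7 by -0.21 and -0.20, Unc13a by -0.0214 and -0.0206, Rims3 by -0.0137 and -0.0137 and Rab3c by 0.0119 and 0.0112, and under DOX alone Syt7 differed from the control by 0.12 and 0.11. The cause was not tested.

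The numbers of members called moved as follows. The GC correction gave 18 for activin B in sh1/2 cells (28 as reported), and under DOX alone 3 in ALK7 (0) and 4 in ALK7-DN cells (1), and 12 in ALK7 cells with activin B (7). The replicate block gave 3 for the ALK7 interaction (1), 17 for the sh1/2 interaction (6), 2 for ALK7-DN under DOX alone and 11 for ALK7 with activin B. Both together gave 23 for activin B in ALK7-DN (14) and 27 in sh2 cells (17), 5 and 10 for the ALK7 and sh1/2 interactions, 7 and 8 for ALK7 and ALK7-DN under DOX alone, and 13 and 23 for ALK7 and sh2 with activin B (sh2, 13 as reported). Across lines the replicate numbers were not taken to pair wells, since not every pair correlated above 0.1. The block alone ended 2 member calls, Syt16 with activin B in control cells (adjusted p = 0.0628) and Mlph in the sh1/2 interaction (0.0511), and moved no other count of members by over 1.5 times. Without the 3 libraries low on GC-rich genes, which leaves 1 sh1/2 DOX library whose spread is assumed to be that of the other groups, the numbers were 14 for activin B in sh1/2 cells, 1 for its interaction and 19 under DOX alone (29). With only the groups compared, which leaves fewer libraries in the fit, they were 12, 0 and 19, with 0 for the ALK7 interaction, 2 for ALK7-DN under DOX alone, and 0 and 4 for ALK7 and sh2 with activin B. With no filter the ALK7 and sh1/2 interactions gave 0 and 2. DESeq2 gave 15 for the sh1/2 interaction, 2 for ALK7-DN under DOX alone and 11 for ALK7 with activin B.

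Leaving out single libraries gave 13 to 17 members for activin B in control, 22 to 23 in ALK7, 12 to 15 in ALK7-DN, 15 to 19 in sh2 and 18 to 35 in sh1/2 cells. The interactions gave 0 to 1 (ALK7), 0 to 0 (ALK7-DN and sh2) and 1 to 26 (sh1/2). Line comparisons gave 0 to 0, 1 to 1 and 26 to 35 under DOX alone (ALK7, ALK7-DN, sh1/2) and 4 to 9, 10 to 13 and 20 to 26 with activin B (ALK7, sh2, sh1/2). RLE scaling moved none of these counts by over 1.5 times.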
